A study of Mus musculus with 6 samples.

Results

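Endothelial and angiogenic receptor genes were examined in primary mouse embryonic fibroblasts that differ at exon 2 of Cas (p130Cas, gene Bcar1), a docking protein of integrin adhesions. The members are 10 genes, given as a list of endothelial markers and receptors for blood vessel growth factors, of 18193 genes named on the arrays. They are Flt1, Kdr, Nrp1, Nrp2, Tek, Tie1, Eng, Pecam1, Cdh5 and Emcn. Every probe set (a group of short probes for a transcript) that is annotated to 1 of these symbols was taken, which gave 21 probe sets. The cultures were homozygous for the deletion (Cas exon 2∆/∆, no intact copy), heterozygous (Cas exon 2+/∆) or wild type (Cas exon 2+/+), with 2 embryos and 2 Affymetrix arrays per genotype. All embryos came from matings between heterozygotes and were taken at 12.5 days post coitum. Heads and inner organs had been removed for genotyping, so the cultures came from the rest of the body, which still holds vessels. The strain label is B6 for 5 cultures and missing for wild type 1. How the exon was deleted was not stated in the labels.

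Blood vessels are lined by endothelial cells, whose tyrosine kinase receptors Flt1 (VEGFR1) and Kdr (VEGFR2) bind VEGF, aided by the co-receptors Nrp1 and Nrp2. Tek (Tie2) binds angiopoietins and works with its relative Tie1 in vessel stability, while Eng (endoglin) is a co-receptor for BMP and TGF-beta ligands. Pecam1 (CD31) and VE-cadherin (Cdh5) hold endothelial cells together, and endomucin (Emcn) is a sialomucin on their surface. Nrp1, Nrp2 and Eng are also known from mesenchymal cells, and Flt1, Nrp1 and Pecam1 from cells of the monocyte and macrophage lineage.

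To show the sequence next to these genes, 250 bases before the RefSeq transcript start are printed for 6 members. Flt1, Kdr, Nrp1 and Nrp2 are shown because they form the VEGF receptor system, Tie1 as a member near the bottom of the intensity range, and Emcn as the tested member with the widest range between cultures. The sequences are from RefSeq (build GRCm38.p6), 5′ to 3′ on the strand of the gene, and the capitals mark GGAA or its reverse complement TTCC, the core that ETS transcription factors bind.
Flt1 (chr5:147726012-147726261, minus strand): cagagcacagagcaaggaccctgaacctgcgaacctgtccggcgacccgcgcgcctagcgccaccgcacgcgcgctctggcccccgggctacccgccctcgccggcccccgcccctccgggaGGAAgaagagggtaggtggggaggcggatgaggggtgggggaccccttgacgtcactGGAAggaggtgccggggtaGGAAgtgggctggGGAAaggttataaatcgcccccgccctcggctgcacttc
Kdr (chr5:75978456-75978705, minus strand): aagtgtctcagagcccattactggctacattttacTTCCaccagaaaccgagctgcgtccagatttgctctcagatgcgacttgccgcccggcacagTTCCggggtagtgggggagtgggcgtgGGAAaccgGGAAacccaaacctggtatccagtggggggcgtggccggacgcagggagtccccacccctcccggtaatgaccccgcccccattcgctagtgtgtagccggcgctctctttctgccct
Nrp1 (chr8:128358823-128359072, plus strand): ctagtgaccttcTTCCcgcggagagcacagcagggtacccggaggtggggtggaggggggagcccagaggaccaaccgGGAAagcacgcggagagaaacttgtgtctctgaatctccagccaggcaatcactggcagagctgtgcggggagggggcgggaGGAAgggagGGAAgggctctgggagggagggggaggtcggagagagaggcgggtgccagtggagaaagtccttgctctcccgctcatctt
Nrp2 (chr1:62703067-62703316, plus strand): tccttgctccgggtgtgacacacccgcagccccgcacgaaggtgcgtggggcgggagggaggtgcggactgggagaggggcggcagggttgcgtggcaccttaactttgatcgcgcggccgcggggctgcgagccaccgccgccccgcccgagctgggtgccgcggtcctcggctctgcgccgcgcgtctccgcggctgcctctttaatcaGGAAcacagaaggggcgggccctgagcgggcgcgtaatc
Tie1 (chr4:118489850-118490099, minus strand): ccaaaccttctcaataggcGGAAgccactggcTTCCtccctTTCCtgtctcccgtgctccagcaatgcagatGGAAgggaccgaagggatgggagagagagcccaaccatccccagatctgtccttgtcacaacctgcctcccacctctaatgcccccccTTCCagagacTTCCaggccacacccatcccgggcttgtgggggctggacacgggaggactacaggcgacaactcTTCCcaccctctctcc
Emcn (chr3:137340828-137341077, plus strand): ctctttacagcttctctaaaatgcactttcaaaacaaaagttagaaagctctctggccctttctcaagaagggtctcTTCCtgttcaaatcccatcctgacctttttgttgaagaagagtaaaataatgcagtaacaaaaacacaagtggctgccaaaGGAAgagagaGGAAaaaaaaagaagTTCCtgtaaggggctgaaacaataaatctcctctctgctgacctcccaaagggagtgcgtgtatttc

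Of the 10 members, 8 had an entry in the promoter table, and Pecam1 and Cdh5 are named only. The ETS core occurred in all 8 windows, from 1 match in Nrp2 to 7 in Tie1, but also in 93.4% of 32851 promoters of the same length, with a median of 3 matches. The cAMP response element TGACGTCA was found only in Flt1 among the 8, starting 81 bases before the transcript start, against 1.55% of all promoters. The letters TATAAA were likewise found only in Flt1 of the 8, starting 31 bases before the start, against 12.4% of all promoters. The GC box GGGCGG occurred in Flt1, Kdr, Nrp1 and Nrp2, with 5 matches in Nrp2, and in none of Tek, Tie1, Eng and Emcn, against 32.7% of all promoters. Both strands were searched, and 0 matches of different motifs overlapped. The windows of Nrp2 and Flt1 had the highest share of G and C, 72.4% and 70.4%, and that of Emcn the lowest, 40.8%.

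Levels are given as log2(intensity + 1.78) after quantile normalization, which sets all arrays to the same distribution. Probe sets in the upper 50% by mean level, from 4.57 upward, were tested with limma, and "called" means a Benjamini-Hochberg adjusted p under 0.05. Of the 21 member probe sets, 16 lay above this limit and 5 below it. A probe set's brightness also depends on its probes, so the levels of different genes do not rank their transcripts. In bulk cultures, fewer cells of a type and less RNA per cell cannot be told apart.

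The endothelial markers Pecam1, Cdh5 and Tie1 gave almost no signal in any genotype. All 4 probe sets of Pecam1, Cdh5 and Tie1 lay below the limit, with deposited intensities between 0.581 and 12.3 over the 6 arrays. By mean level, these probe sets were between the 6.8th and the 28.8th percentile of all probe sets. By contrast, Kdr, Tek and Emcn lay just above the limit, at the 59.8th, 54.9th and 52.6th percentile, and the brightest probe sets of Eng, Flt1, Nrp2 and Nrp1 lay at percentiles 70.1, 72.7, 87.4 and 95.6.

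**Figure D1:**
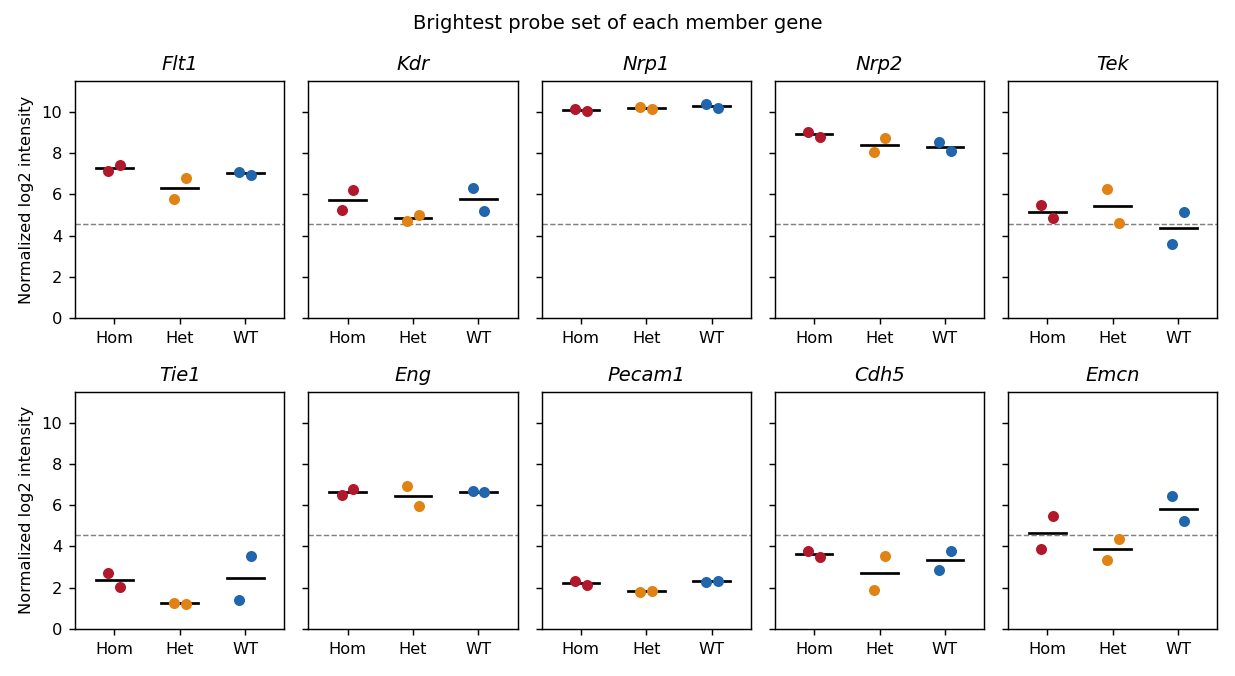
Normalized log2 intensity of the brightest probe set of each member in homozygotes (Hom), heterozygotes (Het) and wild type (WT). Points are arrays, bars are means of 2 arrays, and the dashed line is the test limit of 4.57; Tie1, Pecam1 and Cdh5 lie below it in all 6 arrays, and Nrp1 lies between 10.05 and 10.39.

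For the targeted gene, Bcar1, homozygotes overlapped both other genotypes. Its brighter probe set was at 8.08 and 8.43 in homozygotes, 8.19 and 8.32 in heterozygotes, and 9.37 and 8.42 in wild type. Both heterozygotes thus lay below both wild-type arrays. For its other probe set all genotypes overlapped. Where these probes lie relative to exon 2 is unknown here, so they do not check the genotype labels. Fibroblast genes were bright in all genotypes. Col1a1 (a type I collagen chain) was at 13.34 and 12.93 in homozygotes, 13.28 and 13.43 in heterozygotes, and 12.46 and 12.98 in wild type. Col1a1 is shown for its role, chosen after its values were seen. Of the 9 fibroblast genes, 4 had a higher and 5 a lower mean in homozygotes than the mean of the other genotypes (median difference -0.02). Against wild type 6 were higher and 3 lower (median 0.22), and against heterozygotes 2 were higher and 7 lower (median -0.16). In heterozygotes against wild type 8 of 9 were higher (median 0.64). Wild type 1 stood apart, with its median fibroblast gene 0.61 below the 6-array mean (-0.61) where the other arrays were between -0.08 and 0.34. The sex-linked genes Xist and Eif2s3y had the male pattern in both homozygotes and wild type 2 and the female pattern in both heterozygotes and wild type 1, with Xist at 3.70 and 5.31 in homozygotes, 10.27 and 10.29 in heterozygotes, and 8.82 and 4.23 in wild type. Genotype and embryo sex cannot be told apart between homozygotes and heterozygotes.

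The main comparison set homozygotes against both other genotypes, and limma called 0 of the 16 member probe sets. Over all 22519 tested probe sets it also called 0, which is 0%. At an unadjusted limma p under 0.05 there were 0 of 16 member probe sets, against 560 or 2.49% of all. The smallest unadjusted member p was 0.0809 (Nrp2, adjusted p = 1). Of the 16, 11 were higher and 5 lower in homozygotes, and their median log2 difference was 0.26, against -0.0039 over all tested probe sets. Over the brightest probe sets of the 7 tested genes the median was also 0.26, but it was 0.44 without homozygote 1, -0.06 without homozygote 2, 0.08 without heterozygote 2, 0.13 without wild type 1, 0.12 without wild type 2. A fit that included embryo sex gave 0.82, where only the 2 wild-type arrays separate sex from genotype. Both homozygote arrays lay above the other 4 for 2 member probe sets, of Flt1 and Nrp2, where this held for 3.27% of all tested. They lay below the other 4 for 2 member probe sets, both of Nrp1, against 4.02% of all. Probe sets of a gene are not independent, so these counts describe 7 genes.

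**Figure D2:**
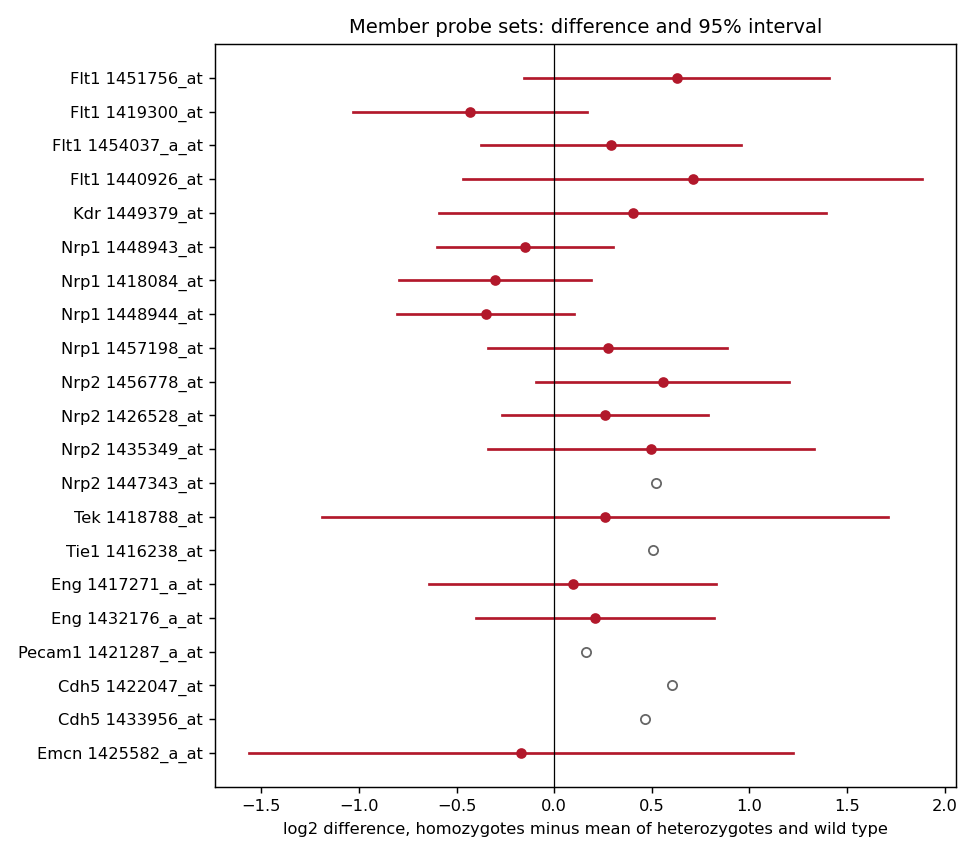
Log2 difference of homozygotes minus the mean of heterozygotes and wild type for the 21 member probe sets, listed by gene and probe set. Filled points are tested probe sets with their 95% interval from limma and open circles are the 5 below the limit, not tested; each of the 16 intervals includes 0.

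Flt1, the VEGF receptor that also occurs as a soluble decoy, was measured by 4 probe sets, 3 with a higher and 1 with a lower mean in homozygotes. The brightest (1451756_at) was at 7.12 and 7.44 in homozygotes, 5.76 and 6.82 in heterozygotes, and 7.09 and 6.95 in wild type. Both homozygote cultures were thus the highest, by a small margin over wild type 1, and heterozygote 1 was the lowest. The difference of homozygotes from both other genotypes was 0.63 (SE 0.32, 95% interval -0.16 to 1.41, limma adjusted p = 1).

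Heterozygote 1 was also lowest for 2 further Flt1 probe sets. Probe set 1440926_at was at 5.57 and 6.07 in homozygotes, 3.94 and 5.63 in heterozygotes, and 5.72 and 5.16 in wild type. Probe set 1454037_a_at was at 5.97 and 6.32 in homozygotes, 5.42 and 6.07 in heterozygotes, and 6.19 and 5.73 in wild type. In both, homozygotes and wild type overlapped. The fourth, 1419300_at, ran the other way and was at 6.45 and 5.75 in homozygotes, 6.37 and 6.40 in heterozygotes, and 6.66 and 6.69 in wild type. Its difference was -0.43 (SE 0.25, 95% interval -1.03 to 0.17), with homozygote 2 the lowest array. Which Flt1 transcripts each probe set matches was not stated in the labels.

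Kdr, the main signalling receptor for VEGF, was at 5.22 and 6.22 in homozygotes, 4.73 and 4.98 in heterozygotes, and 6.33 and 5.22 in wild type. The heterozygotes were the lowest arrays, and homozygotes and wild type covered nearly the same range. The difference of homozygotes was 0.40 (SE 0.41, 95% interval -0.59 to 1.39, limma adjusted p = 1), and it was -0.09 without homozygote 2.

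Nrp1, a co-receptor for VEGF and class 3 semaphorins, was bright and varied little. Its brightest probe set (1448943_at) was at 10.14 and 10.05 in homozygotes, 10.26 and 10.13 in heterozygotes, and 10.39 and 10.20 in wild type. Probe set 1448944_at was at 8.87 and 8.78 in homozygotes, 9.27 and 9.09 in heterozygotes, and 9.26 and 9.09 in wild type. Here both homozygote cultures lay below the other 4, with a difference of -0.35 (SE 0.19, 95% interval -0.80 to 0.10, limma adjusted p = 1). A similar probe set, 1418084_at, gave -0.30 (SE 0.20), and the dimmest, 1457198_at, gave 0.27 (SE 0.25). The brightest differed by -0.15 (SE 0.19, 95% interval -0.60 to 0.30).

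Nrp2, the neuropilin that also pairs with VEGF-C receptors in lymphatic vessels, had a higher mean in homozygotes for its 3 tested probe sets. The brightest (1456778_at) was at 9.02 and 8.80 in homozygotes, 8.07 and 8.73 in heterozygotes, and 8.52 and 8.09 in wild type. Both homozygote cultures were the highest and heterozygote 2 came close to them. The difference was 0.56 (SE 0.27, 95% interval -0.09 to 1.20, limma adjusted p = 1).

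The other 2 tested Nrp2 probe sets gave 0.50 (SE 0.34) and 0.26 (SE 0.22), and in both a heterozygote array lay within the homozygote range. Probe set 1435349_at, for example, was at 8.89 and 8.28 in homozygotes, 7.83 and 8.84 in heterozygotes, and 7.69 and 7.99 in wild type. The dim probe set 1447343_at, below the limit, was at 5.08 and 4.24 in homozygotes, 4.25 and 3.87 in heterozygotes, and 4.54 and 3.91 in wild type.

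Tek, the angiopoietin receptor, was at 5.47 and 4.84 in homozygotes, 6.26 and 4.61 in heterozygotes, and 3.59 and 5.13 in wild type. All genotypes overlapped, with heterozygote 1 highest and wild type 1 lowest. The difference of 0.26 (SE 0.60, 95% interval -1.19 to 1.71) changed sign without heterozygote 2 (-0.15), wild type 1 (-0.12) or homozygote 1 (-0.05). Its relative Tie1 was at 2.72 and 2.02 in homozygotes, 1.25 and 1.22 in heterozygotes, and 1.42 and 3.56 in wild type. Its highest deposited intensity was 9.43, in wild type 2, and it was not tested.

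Eng, the BMP and TGF-beta co-receptor, was at 6.49 and 6.80 in homozygotes, 6.92 and 5.96 in heterozygotes, and 6.71 and 6.62 in wild type. The homozygote and wild-type arrays lay between those of the heterozygotes. The difference was 0.09 (SE 0.30, 95% interval -0.64 to 0.83), and its sign turned without heterozygote 2 (-0.14) or homozygote 2 (-0.06). The second Eng probe set was at 4.68 and 5.28 in homozygotes, 5.22 and 4.95 in heterozygotes, and 4.30 and 4.62 in wild type, so that wild type was lowest there.

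Among the junction proteins, Pecam1 was at 2.34 and 2.11 in homozygotes, 1.78 and 1.85 in heterozygotes, and 2.28 and 2.33 in wild type, and its highest deposited intensity was 3.47. The brighter Cdh5 probe set was at 3.75 and 3.48 in homozygotes, 1.88 and 3.55 in heterozygotes, and 2.86 and 3.78 in wild type. The other Cdh5 probe set was at 2.36 and 3.42 in homozygotes, 3.60 and 1.56 in heterozygotes, and 2.66 and 1.90 in wild type. The Cdh5 probe sets did not order the arrays alike, and neither separated the genotypes. Pecam1 rests on a lone probe set.

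Emcn varied most among the tested members. It was at 3.88 and 5.47 in homozygotes, 3.35 and 4.36 in heterozygotes, and 6.44 and 5.23 in wild type. In deposited intensity this was 13.5 and 38.4 in homozygotes, 9.03 and 20.8 in heterozygotes, and 83.2 and 33.0 in wild type. Wild type 1 was highest and heterozygote 1 lowest, 3.09 apart on the log2 scale, and homozygote 2 lay within the wild-type range. The difference of homozygotes from both other genotypes was -0.17 (SE 0.58, 95% interval -1.56 to 1.22, limma adjusted p = 1).

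The pairwise comparisons called 0 member probe sets, and 0% of all 22519 in each case. Against wild type, homozygotes had 0 of 16 member probe sets at an unadjusted limma p under 0.05, against 3.8% of all. Against heterozygotes they had 1 of 16, against 2.17% of all. This was the brightest Flt1 probe set, with homozygotes 1.99-fold higher (log2 difference 0.99, SE 0.37, unadjusted p = 0.0363, limma adjusted p = 1), and without heterozygote 1 the difference was 0.46. Heterozygotes against wild type gave 1 of 16, against 5.26% of all. This was Emcn, 3.93-fold lower in heterozygotes (log2 difference -1.98, SE 0.66, unadjusted p = 0.0236, limma adjusted p = 0.838), with a difference of -1.37 without wild type 1. These 2 of 64 member tests make 3.12%, which is near the background shares. The comparisons share arrays, so they are not independent.

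For the other tested members the pairwise differences had intervals that include 0. Kdr differed by -0.06 (SE 0.47) in homozygotes against wild type, 0.86 (SE 0.47) against heterozygotes, and -0.92 (SE 0.47) in heterozygotes against wild type. The brightest Flt1 probe set and Kdr thus had their lowest mean in heterozygotes, where the means were 6.29 ± 0.74 and 4.86 ± 0.18 (SD, n = 2 each). Flt1 probe set 1419300_at instead had its lowest mean in homozygotes, 6.10, against 6.38 in heterozygotes and 6.67 in wild type. Tek had its highest mean in heterozygotes, 5.43 ± 1.17 (SD, n = 2), and differed there by 1.07 (SE 0.69, 95% interval -0.60 to 2.74) from wild type. Nrp2 averaged 8.91 ± 0.16 in homozygous cells, 8.40 ± 0.47 in heterozygous cells and 8.31 ± 0.30 in wild-type cells (SD, n = 2 each). Its homozygote difference was 0.60 (SE 0.31) from wild type and 0.51 (SE 0.31) from heterozygotes. Eng differed by -0.02 (SE 0.35) and 0.21 (SE 0.35) in the same comparisons, and Nrp1 by -0.20 (SE 0.22) and -0.10 (SE 0.22). Emcn was lower in homozygotes than in wild type by mean, at -1.16 (SE 0.67), but higher than in heterozygotes, at 0.82 (SE 0.67), and none of these passed the test.

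Cultures of 1 genotype differed among themselves. Over the 16 member probe sets, the median difference between the 2 homozygote arrays was 0.36, between the heterozygote arrays 0.53 and between the wild-type arrays 0.31. Over all tested probe sets these medians were 0.32 for homozygotes, 0.28 for heterozygotes and 0.34 for wild type. Heterozygote 1 was the lowest array for 7 of the 16 member probe sets and the highest for 4.

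Emcn and Tek had opposite patterns over the 6 cultures. The gene most like Emcn of 11010 compared was Mcam (CD146, an adhesion molecule of endothelial cells and pericytes), with r = 0.994 over 6 arrays, followed by Pgam1 and Emc6 (r = 0.993 each). Mcam was at 5.06 and 6.67 in homozygotes, 4.84 and 5.69 in heterozygotes, and 7.85 and 6.43 in wild type. Flt4 (VEGFR3, the VEGF-C receptor of lymphatic endothelium) was at 6.14 and 7.15 in homozygotes, 5.28 and 6.43 in heterozygotes, and 8.09 and 6.94 in wild type. Emcn, Mcam and Flt4 thus ordered the 6 cultures in the same way, from wild type 1 over homozygote 2 and wild type 2 to heterozygote 2, homozygote 1 and heterozygote 1. Flt4 had r = 0.99 with Emcn, and Kdr r = 0.88. In heterozygotes against wild type, Mcam differed by -1.87 (unadjusted p = 0.032) and Flt4 by -1.66 (unadjusted p = 0.0271), both with a limma adjusted p of 0.838. Mcam was picked for its r with Emcn out of 11010 genes, and Flt4 was picked for display. Their shared order and differences are therefore no separate support for the Emcn difference.

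Tek had r = -0.88 with Emcn. Clec14a, an endothelial lectin chosen for display after its values were seen, had r = 0.93 with Tek. It was at 5.84 and 5.47 in homozygotes, 6.41 and 5.04 in heterozygotes, and 2.36 and 5.17 in wild type. Wild type 1 was thus the highest array for Emcn, Kdr, Mcam and Flt4 and the lowest for Tek and Clec14a. The genes most like the other members were P2rx4, Ppt1 and Clmn for Tek (r from 0.99 to 0.994), Bmp2k, Slc31a1 and Nae1 for Flt1 (0.973 to 0.991), and Pcgf5, Gfm2 and Gng12 for Kdr (0.983 to 0.985). They were Btbd9, Gclc and Med20 for Nrp1 (0.954 to 0.956), Zfp653, Nfxl1 and Tspan9 for Nrp2 (0.979 to 0.98), and Erp29, Aktip and Actn3 for Eng (0.984 to 0.991). These are descriptions over 6 arrays that share their normalization, searched over 11010 genes.

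**Figure D3:**
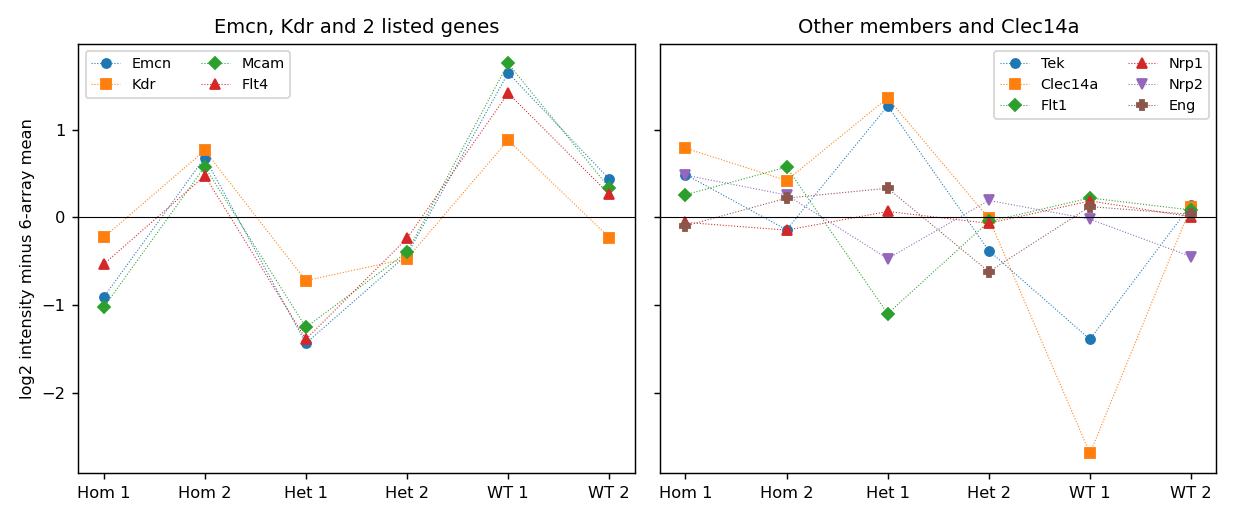
Log2 intensity minus the mean of the 6 arrays for Emcn, Kdr, Mcam and Flt4 (left) and for Tek, Clec14a, Flt1, Nrp1, Nrp2 and Eng (right), per array. Dotted lines only join the points of a gene; wild type 1 is at 1.65 for Emcn and at -1.39 for Tek.

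Beyond the members, a list of 33 other endothelial genes was read from the same fit. Of these, 13 lay above the limit, among them Ecscr, Egfl7, Erg, Nos3 and Ptprb, at percentiles 80.1, 65.9, 60.3, 56.4 and 54.8. The 20 below it included Vwf (von Willebrand factor), Cldn5 (the junction claudin), Esam, Sox17 and Sox18. The genes named here were chosen for their roles after their values were seen. Of the 13, 9 had a higher and 4 a lower mean in homozygotes (median difference 0.18, but 0.10 without wild type 1 and -0.19 with the sex covariate). Limma called 0 of them in any comparison. An unadjusted p under 0.05 was found for 1 in this main comparison, 3 in homozygotes against wild type, 0 against heterozygotes and 3 in heterozygotes against wild type. The gene in the main comparison was Cd34, a sialomucin of endothelial, haematopoietic and some mesenchymal cells. It was at 7.38 and 7.10 in homozygotes, 6.65 and 5.97 in heterozygotes, and 5.02 and 6.11 in wild type, so that both homozygote cultures were the highest. Its difference of 1.30 (SE 0.37, unadjusted p = 0.0112, limma adjusted p = 1) was 0.28 with a covariate for embryo sex, which only the 2 wild-type arrays separate from genotype. Next came Cd93, a lectin-like receptor of endothelial and myeloid cells, with 1.19 (SE 0.57). Homozygote 1 alone, at 7.82, was high, while homozygote 2 at 5.98 lay below wild type 2 at 6.29. Selp (P-selectin) gave -0.38 (SE 0.20) and Lmo2 0.87 (SE 0.53).

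Lymphatic endothelial genes were sparse, with 2 of 5 measured genes tested: Pdpn (podoplanin, also a fibroblast gene) differed by 0.17 (SE 0.22) and Flt4 by -0.04 (SE 0.50).

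Macrophage markers had higher means in homozygotes, and some members are known from macrophages as well. All 15 tested markers of 16 had a higher homozygote mean (median difference 1.28). Limma called 0, and 8 of 15 had an unadjusted p under 0.05, against 2.49% of all tested probe sets. Without homozygote 1 the median difference was 0.59. The median marker level was nevertheless higher in wild type 2 (0.28 above the 6-array mean) than in homozygote 2 (0.18). When embryo sex was a covariate, the median difference was -0.16, but only the 2 wild-type arrays separate sex from genotype. Their summed deposited intensity ranged from 8016 to 16960 in homozygous cultures, from 5903 to 6107 in heterozygous ones and from 3549 to 7413 in wild-type ones, and none of the 16 was at 0. Of the members known from that lineage, Flt1 had a higher homozygote mean for 3 of 4 probe sets. Nrp1 had a lower one for 3 of 4, and Pecam1 lay below the limit. In wild type 1, where the median macrophage marker was lowest (-1.10), the brightest Flt1 probe set was 0.22 above its 6-array mean. Of all 16 tested member probe sets 11 had higher homozygote means, and of the 13 tested other endothelial genes 9 did. Nrp2, Cd34 and Cd93 were among these. The part of macrophages in these levels was not tested. Blood markers were dim, with all 5 measured haematopoietic and erythroid genes below the limit.

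**Figure D4:**
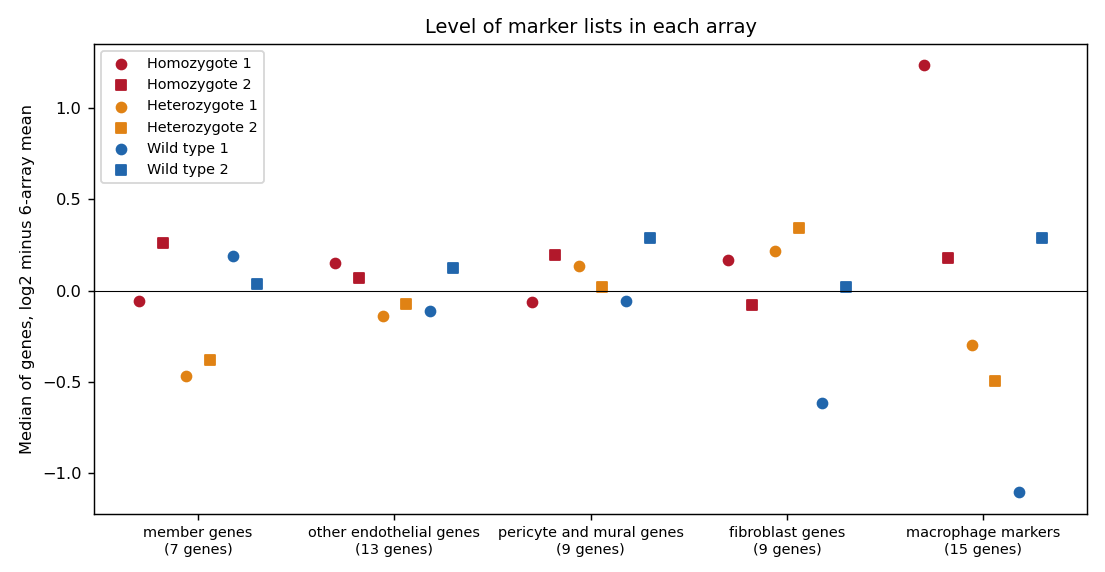
Median over the tested genes of each list of log2 intensity minus the mean of the 6 arrays; points are arrays, coloured by genotype. The median of macrophage markers reaches from 1.23 in homozygote 1 to -1.10 in wild type 1. That of the member genes lies between -0.47 in heterozygote 1 and 0.26 in homozygote 2, and that of the 13 other endothelial genes between -0.14 and 0.15. Single genes vary more than these medians, such as Clec14a from -2.69 in wild type 1 to 1.36 in heterozygote 1.

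The list of VEGF and angiopoietin ligands, which also holds the angiopoietin-like gene Angptl4, had no called difference. In this list and those of neuropilin and endoglin partners, limma called 0 genes in any comparison, and 0 had an unadjusted p under 0.05 in homozygotes against both other genotypes. Of 9 measured genes of the VEGF and angiopoietin list 8 were tested, 4 with a higher and 4 with a lower homozygote mean. Their median difference was 0.09. Leaving out an array gave 0.03 without heterozygote 1 to 0.22 without wild type 2, and the sex covariate gave -0.39. Vegfa, the ligand of Flt1 and Kdr, was at 7.94 and 8.06 in homozygotes, 7.69 and 8.41 in heterozygotes, and 8.29 and 7.83 in wild type, so that the genotypes overlapped; it was chosen for its role after its values were seen. Angpt1, the agonist of Tek, differed by 0.79 (SE 0.49), with homozygote 1 highest at 7.99, and Angptl4 by -0.71 (SE 0.65).

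Of 12 semaphorin and plexin genes, the partners of the neuropilins, 11 were tested, 3 higher and 8 lower, with a median of -0.11 (leaving out an array gave -0.26 without homozygote 1 to 0.01 without homozygote 2, and the sex covariate -0.28). In heterozygotes against wild type 2 of them had an unadjusted p under 0.05, Sema3d (1.21) and Plxna2 (1.02). Sema3a, a repulsive ligand of Nrp1, was at 7.19 and 7.60 in homozygotes, 7.89 and 7.75 in heterozygotes, and 8.36 and 7.66 in wild type. Both homozygote cultures were the lowest (difference -0.52, SE 0.27, limma adjusted p = 1). Plxna4, a plexin that signals with neuropilins, differed by -0.71 (SE 0.38).

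Of 14 endoglin partners 11 were tested, 7 higher and 4 lower, with a median difference of 0.09 (leaving out an array gave -0.04 without homozygote 1 to 0.26 without homozygote 2, and the sex covariate -0.30). Tgfbr1, a type I TGF-beta receptor, differed by 0.46 (SE 0.24), and by 0.72 against wild type alone (unadjusted p = 0.036, limma adjusted p = 0.973). Acvr2a, an activin receptor, differed by 0.88 in heterozygotes against wild type (unadjusted p = 0.0416, limma adjusted p = 0.838), and Tgfbr3 (betaglycan, the relative of endoglin) by 0.60 (SE 0.52) in the main comparison. Acvrl1 (ALK1), the receptor that endoglin serves in vessels, was at 6.02 and 7.16 in homozygotes, 7.18 and 6.72 in heterozygotes, and 6.83 and 7.09 in wild type. Homozygote 1 was the lowest array, and the other 5 lay between 6.72 and 7.18.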

How the data were processed

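The deposited values are linear probe set intensities of 6 Affymetrix arrays, from 2 µg of total RNA each, per the labels' protocols. How probes were summarised and arrays scaled was not stated in the labels. Intensities were converted to log2(intensity + 1.78), the pseudocount being their 10th percentile, since the deposited columns held no log2 values, and quantile normalized, because array medians spanned 0.29. After 64 control probe sets were left out, the upper 50% by mean level (22519 probe sets) were tested across all genes with limma 3.58.1 in R 4.3.3, with a mean per genotype, 3 residual and 3.28 prior degrees of freedom, and Benjamini-Hochberg adjustment. The fit's median estimates were checked on simulated data, which is no statement of its ability to detect changes with 2 arrays per genotype. The labels give each array as a separate embryo; the number of arrays limits the precision. Symbols came from the platform annotation, updated through Entrez identifiers. A gene's main probe set is its brightest. From each list up to 4 genes with the smallest p were named, besides those said to be chosen after their values were seen; the 3 genes with the highest Pearson r were sought for each tested member. Members and lists were chosen with earlier results of these data known. Alternatives changed normalization, pseudocount, filter, probe set averaging, replicate block, embryo sex and single arrays.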

Additional observations from a re-analysis of the deposited data

How the results depend on the processing

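No member was called in homozygotes against the mean of wild type and heterozygotes under any of 13 alternatives, where the lowest adjusted p of a member's brightest probe set was 0.817. Of 130 member values under alternatives, 14 changed sign, 11 of them of tested genes. With the covariate for embryo sex, Tek was at -1.23 and Emcn at 1.18, and the untested Tie1 and Cdh5 at -1.50 and -0.23; Tie1 was at -0.02 without wild type 1. Leaving out arrays, Kdr ranged from -0.094 to 0.90, Tek from -0.15 to 0.68 (with -0.12 and -0.05 between), Eng from -0.14 to 0.33 (with -0.06) and Emcn from -0.97 to 0.63 (with 0.08 without heterozygote 2 and 0.13 without wild type 1). Flt1 stayed between 0.30 and 0.89, Nrp1 between -0.24 and -0.01, and Nrp2 between 0.39 and 0.91 over all alternatives. The count of all called probe sets, 0 in each comparison, ranged from 0 to 2 for homozygotes against both other genotypes and against heterozygotes, and from 0 to 1 for heterozygotes against wild type, when an array was left out; with the sex covariate it was 1 for heterozygotes against wild type. None of these was a member. With an array left out, the only gene among them with a symbol was the sex-linked Eif2s3y. The fit with a replicate block called 0 probe sets in each comparison, with Emcn in heterozygotes against wild type at -1.98 (adjusted p = 0.999). The deviations of same-numbered arrays had r of -0.143, -0.135 and -0.36 between genotypes. They thus showed no shared shift, and no crossed pairing can serve all 3. With 2 arrays per genotype, these r cannot tell whether same-numbered arrays were handled together. Emcn in heterozygotes against wild type reached adjusted p = 0.207 at the lowest, with the sex covariate (-3.16), and was at -0.97 with a pseudocount of 32, which compresses dim probe sets. Without quantile normalization the median of all tested probe sets shifted by 0.11 in heterozygotes against wild type and by -0.11 in homozygotes against heterozygotes. The causes of these changes were not tested. The 5 member probe sets below the limit are too dim for a direction.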

Other observations

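Mural cells wrap vessels, and their genes were read from the same fit. Of 10 pericyte and mural genes 9 were tested, 4 higher and 5 lower in homozygotes, with a median of -0.11, which leaving out an array moved to between -0.14 without wild type 2 and 0.24 without homozygote 1, and which was -0.45 with a covariate for embryo sex. Limma called 0 in any comparison; an unadjusted p under 0.05 was found for 0 in this comparison, 1 in homozygotes against wild type (Rgs5), 1 against heterozygotes (Cspg4) and 2 in heterozygotes against wild type (Pdgfrb and Mcam). Pdgfrb, the PDGF receptor of pericytes and fibroblasts, chosen after its values were seen, was at 11.26 and 11.43 in homozygotes, 11.82 and 11.52 in heterozygotes, and 10.30 and 11.11 in wild type. Cspg4 (NG2, a pericyte proteoglycan) was lowest in both homozygote cultures, at 7.68 and 7.55, against 8.10 and 8.17 in heterozygotes and 7.80 and 7.88 in wild type (difference -0.37, SE 0.18, limma adjusted p = 1). Rgs5, a regulator of G protein signalling in pericytes, differed by -0.58 (SE 0.37).

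Genes of arterial and venous identity included 13 of the Notch and ephrin systems, of which 8 were tested, 1 higher and 7 lower in homozygotes, with a median of -0.35, against -0.0039 over all tested probe sets. This median was -0.16 without homozygote 2, -0.22 without heterozygote 1, and -0.09 when embryo sex was in the fit. Limma called 0 in any comparison, and 1 (Ephb4) had an unadjusted p under 0.05 in homozygotes against both other genotypes. The endothelial Notch ligand Dll4 and the receptor Notch4 (both chosen after their values were seen) were below the limit. Ephb4, the venous ephrin receptor, was at 5.74 and 5.40 in homozygotes, 6.06 and 6.49 in heterozygotes, and 6.03 and 5.96 in wild type, with both homozygote cultures the lowest (difference -0.56, SE 0.22, limma adjusted p = 1). Heyl, a Notch target, was at 4.56 in both homozygote cultures, 4.99 and 4.91 in heterozygotes, and 5.37 and 4.95 in wild type (difference -0.50, SE 0.21, limma adjusted p = 1). Notch1, a receptor of many cell types, was at 6.91 and 6.57 in homozygotes, 7.86 and 7.42 in heterozygotes, and 6.69 and 6.92 in wild type, so that both heterozygote cultures were the highest. It differed by -0.90 in homozygotes against heterozygotes (unadjusted p = 0.0138, limma adjusted p = 1) and by 0.84 in heterozygotes against wild type (unadjusted p = 0.0189, limma adjusted p = 0.838). In the pairwise comparisons Ephb4 also had an unadjusted p of 0.033 against heterozygotes and Heyl of 0.0423 against wild type.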
